A study of Mus musculus with 2 samples.

Results

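The genes described here are the histone cluster genes of the mouse, taken as all genes whose symbol begins with Hist1h, Hist2h, Hist3h or Hist4h, the names of the 4 genomic clusters in the annotation used. Of 32285 gene rows in the expression matrix, 67 carried such a symbol. They comprised 6 genes of the linker histone H1, 18 of H2A, 18 of H2B, 12 of H3 and 13 of H4. In the study, invariant natural killer T (iNKT) cells were sorted from the thymus of control (Ctrl) and T-KO mice on a C57BL/6 background. T-KO mice lack Kidins220, a scaffold protein that binds the T cell receptor, because floxed Kidins220 is deleted by a Cre under the proximal Lck promoter. This promoter is active early in T cell development, so cells of other lineages in a sort need not carry the deletion. Ctrl mice were Kidins220+/fl or Kidins220+/+ with LckCre and T-KO mice Kidins220fl/fl with LckCre, so both carried the Cre. The study's methods give a range of ages for the mice of all experiments together and none for this experiment alone. Stage 0 cells were sorted as TCRβ+ CD1d tetramer+ CD24+ NK1.1- and stage 3 cells as TCRβ+ CD1d tetramer+ NK1.1+ CD24- CD44+, each from pools of 4 thymi, giving 8 populations.

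The 8 populations were stained with hashtag antibodies, pooled and loaded together, which gave 1 transcript library from 5′ ends and 1 hashtag library over the same 16179 barcodes. Nearly all hashtag molecules (99.9%) lay on 8 rows, HASH_11 to HASH_18. The labels tie hashtags 1 to 8 to stages and genotypes, but nothing ties those numbers to these row names. Ctrl and T-KO cells were therefore not compared, each row is given by its number, and no test between groups was made, because rows that cannot be tied to a population were not taken as replicates. After removal of barcodes with fewer than 1000 genes or more than 5% mitochondrial counts, 12147 barcodes remained, of which 10007 had at least 80% of at least 10 hashtag molecules on 1 row. These kept cells held 59024792 unique molecular identifiers (UMIs) on genes, with a median of 3828 per cell. A level is the UMIs of a gene or group of genes per 1000000 gene UMIs (CPM), summed over the cells named. Its 95% interval is an exact Poisson interval and covers counting error only.

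Histone genes of this kind supply the protein that packages newly copied DNA. H2A, H2B, H3 and H4 form the core around which DNA winds, and H1 binds the DNA between cores. Most of these mRNAs are made while DNA is replicated, have no introns, and end in a short stem-loop bound by the protein Slbp in place of a poly(A) tail. Some cluster genes also give polyadenylated transcripts, which are often found in cells that no longer divide. The library was primed on poly(A), so mRNAs that end in the stem-loop may be captured less well than polyadenylated ones, and the level of a member here is that of its captured transcripts.

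The 16-base histone stem-loop motif was searched on the gene strand alone in the 150 bases after the stop codon. It allowed any base where the forms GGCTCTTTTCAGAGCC, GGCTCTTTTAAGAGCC, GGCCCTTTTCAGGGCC and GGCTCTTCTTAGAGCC differ from each other, and was found for 60 of the 67 members. Of 21680 coding genes, 62 (0.286%) had a match, so 2 of them were not members. Searching 100 or 300 bases gave 60 members as well. The motif and its neighbouring bases are shown for members that lay at the ends of the range in cycling cells, described further on, and for both H1 genes with the most UMIs. Letters in capitals mark the stem-loop, and positions are on GRCm38 (mm10).
Hist1h2ap (chr13:21833020-21833049, minus strand): aaaaaGGCTCTTTTCAGAGCCatccacagt
Hist1h2ao (chr13:21810893-21810922, plus strand): aaaaaGGCTCTTTTCAGAGCCatccacagt
Hist1h2bk (chr13:22036295-22036324, plus strand): ccaaaGGCTCTTTTAAGAGCCactaaacca
Hist1h1b (chr13:21779828-21779857, minus strand): ccaaaGGCTCTTTTCAGAGCCacctagaga
Hist1h1e (chr13:23621773-23621802, minus strand): ccaaaGGCTCTTTTCAGAGCCacccacaac
Hist1h3f (chr13:23544927-23544956, plus strand): aaaacGGCTCTTTTAAGAGCCacctccatt
Hist1h3c (chr13:23745038-23745067, minus strand): aaaaaGGCTCTTTTAAGAGCCacctaagat
Hist1h4c (chr13:23698080-23698109, minus strand): caaaaGGCCCTTTTCAGGGCCacccacaaa
Each of these genes has 1 annotated exon, and the site lies after its stop codon. The first and the last of these genes, which stood at opposite ends of the range, both match the motif, and the form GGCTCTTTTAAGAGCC occurs in Hist1h2bk as well as in Hist1h3c and Hist1h3f.

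The 67 members together had 282670 UMIs, 0.479% of all gene UMIs of the kept cells. No UMI was counted for Hist1h2aa and Hist1h2ba, which allows a level of up to 0.0508 CPM over all kept cells when 3 counts are taken as the limit for a count of 0. A further 6 members (Hist1h4f, Hist3h2a, Hist2h3c2, Hist2h3c1, Hist1h1t and Hist1h4m) had between 6 and 67 UMIs. The other 59 had at least 100 UMIs and are described singly. This limit was applied to the sum over all kept cells, so that a member could pass through 1 group of cells alone. Many members are near-identical copies: for 28 of the 59, more than 50% of the 60-base stretches of their annotated transcripts also occur in a transcript of another gene. Reads that match several genes are not counted by the software used, so levels of these members are uncertain.

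By hashtag row, the summed level of the histone cluster genes was 4569 CPM in row 11 (95% interval 4526 to 4611), 3340 in row 12 (3294 to 3386), 5670 in row 13 (5631 to 5709) and 3415 in row 14 (3373 to 3458). It was 5950 CPM in row 15 (5899 to 6001), 2870 in row 16 (2801 to 2940), 6498 in row 17 (6430 to 6566) and 3357 in row 18 (3306 to 3409). The odd rows were thus the higher ones and lay between 4569 and 6498 CPM, and the even rows lay between 2870 and 3415 CPM. The highest row stood 2.26 times above the lowest. With at most 4000 genes per cell this was 1.70 times. The share of cycling cells, taken as cells with at least 2 UMIs of Mki67 and Top2a together, was likewise higher in the odd rows, though its order within the odd and within the even rows differed from that of the levels. It was 28.6 to 44.7% in the odd rows and 4.91 to 7.02% in the even rows, and its part in the levels was not tested. Cells of the odd rows were also deeper, with medians of 6500 to 8068 UMIs against 3258 to 3804 in the even rows. The part of depth in these shares was not tested.

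The study's methods report B cells, myeloid cells, CD4+ CD8+ thymocytes and CD4- CD8- thymocytes among the sequenced cells. The study removed these, and proposes a poor CD1d tetramer stain as a possible reason for the presence of some of them. Such cells were kept here, so the groups below need not be iNKT cells. The cells of the odd rows were mixed and were split by the first of 4 marker limits they met. This gave 810 cells with at least 2 UMIs of the B cell receptor gene Cd79a, 972 with at least 5 of Cst3, a gene of dendritic cells, 418 with at least 1 of the recombinase gene Rag1, 1106 with at least 2 of Ikzf2, which codes for Helios, and 943 remaining cells. The 5758 cells of the even rows were kept as the sixth group. Cells of the even rows that met a limit (15 for Cd79a, 49 for Cst3, 65 for Rag1 and 103 for Ikzf2) stayed in that group. Of 7 B cell markers, 6 were highest in the Cd79a cells, and of 9 myeloid markers, 8 in the Cst3 cells. The summed level of the B cell list was nevertheless as high in the Cst3 cells (23911 CPM) as in the Cd79a cells (23862 CPM). Most of both sums was Cd74, with 23893 CPM in the Cst3 cells and 19174 CPM in the Cd79a cells. The other 6 markers of this list had at most 11.8 CPM each in the Cst3 cells. The Rag1 cells had the highest level of 6 of 8 markers of CD4+ CD8+ thymocytes and the Ikzf2 cells of 7 of 8 markers of Helios+ thymocytes. The lists of these 4 groups hold the gene that set the group. The cells of the even rows, which no gene set, were highest in 8 of 9 markers of stage 3 iNKT1 cells, and Trav11, the invariant receptor segment, had 48.3 CPM there and at most 0.863 CPM in the other groups. Free RNA was not removed: Cd74 had 443 CPM in the even rows against 19174 in the Cd79a cells, and its part in the histone levels was not tested.

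Over all their cells, the Rag1 cells had the highest histone level, 9057 CPM, followed by the remaining cells with 7587 CPM and the Ikzf2 cells with 6200 CPM. The Cst3 cells had 3955 CPM, the even rows 3318 CPM and the Cd79a cells 2289 CPM. Over the 4 rows of each group, the Rag1 cells ranged from 8278 to 10260 CPM, the remaining cells from 6438 to 8645 CPM and the Ikzf2 cells from 5758 to 6534 CPM. The Cst3 cells ranged from 3604 to 4481 CPM, the even rows from 2870 to 3415 CPM and the Cd79a cells from 1899 to 3192 CPM. Neighbours in this order overlapped, except that the lowest row of the Ikzf2 cells stood above the highest of the Cst3 cells, and that of the Cst3 cells above the highest even row. The Rag1 cells also had the highest share of cycling cells, 80.1%, against 42.8% of the remaining cells, 39.4% of the Cst3 cells, 34.0% of the Ikzf2 cells, 17.8% of the Cd79a cells and 5.78% of the even rows. The limits for Rag1 and for cycling cells are both fixed UMI counts, which deeper cells meet more readily. Cycling cells had a median of 16323 UMIs in the Rag1 group, the deepest, and 3839 in the even rows, the shallowest. Summed markers of CD4+ CD8+ thymocytes had 1169 CPM in the remaining cells and 1859 CPM in the Rag1 cells. The part of depth in these shares, and in which cells entered the Rag1 group, was not tested.

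Within every group, cycling cells had a higher summed histone level than cells with 0 UMIs of Mki67 and Top2a. The Cst3 cells differed most, with 6119 CPM in 383 cycling cells and 1595 CPM in 427 cells with 0, a ratio of 3.84 (95% interval 3.73 to 3.94). In the Ikzf2 cells the levels were 8663 and 2956 CPM, a ratio of 2.93 (2.86 to 3.00). In the remaining cells they were 9171 and 3838 CPM (ratio 2.39), and in the Cd79a cells 4062 and 1758 CPM (2.31). The 333 cycling cells of the even rows had 6015 CPM and the 4382 cells with 0 had 3061 CPM (1.97). The Rag1 cells had the smallest ratio, 1.59, with 9361 CPM against 5897 CPM, and only 60 cells with 0. These 60 cells had a median of 2494 UMIs, against 16323 in the cycling Rag1 cells. At that depth a cycling cell may show 0 UMIs of both genes, which was not tested. Taken over the 6 groups as strata (Mantel-Haenszel), the ratio was 2.63, and it lay between 1.45 and 3.08 within single rows, above 1 in 8 of 8. Cycling cells were also deeper, with a median of 11798 UMIs against 3517. With every cell thinned to 2000 UMIs, the ratio was 2.16. The classes were kept from full depth, so thinning did not remove the part of depth in which cells were called cycling.

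**Figure D1:**
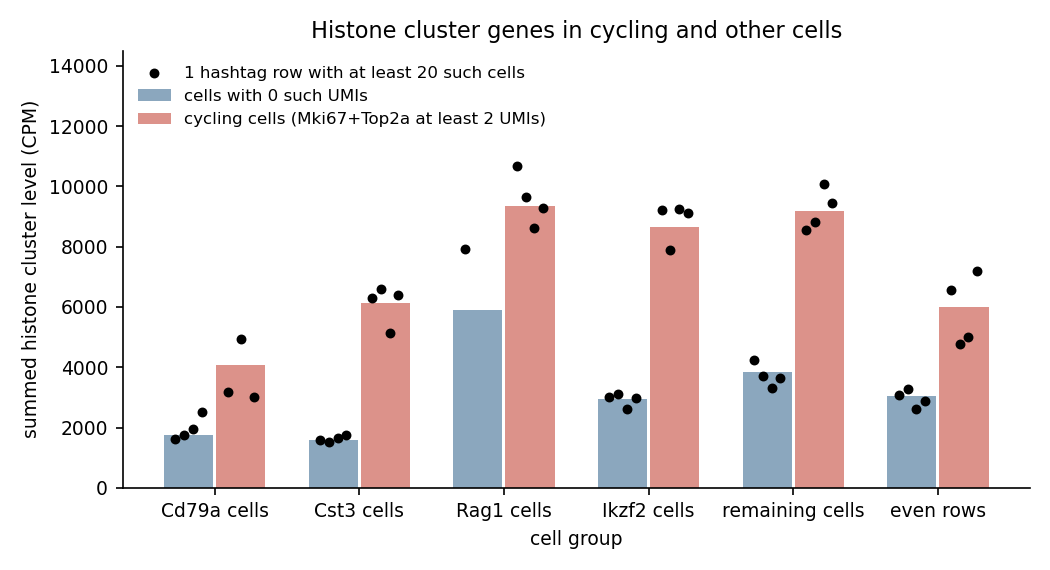
Summed level of the 67 histone cluster genes (vertical axis, CPM) in the 6 cell groups (horizontal axis), in cycling cells (red bars) and in cells with 0 UMIs of Mki67 and Top2a (blue bars); each point is 1 hashtag row with at least 20 such cells. The red bar is the higher in every group, from 4062 CPM in the Cd79a cells to 9361 CPM in the Rag1 cells, and the blue bar of the Rag1 cells has 1 point because only 1 row held enough such cells.

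Among cells with 0, the Cst3 and Cd79a cells had the lowest levels. All rows of the Cst3 cells lay between 1520 and 1744 CPM and those of the Cd79a cells between 1610 and 2516 CPM. The even rows had 2611 to 3293 CPM and the Ikzf2 cells 2630 to 3108 CPM, and these ranges overlapped. The remaining cells lay higher, at 3322 to 4237 CPM. The cells with 0 of the even rows and of the Ikzf2 group thus had histone levels that overlapped, while the share of cycling cells was 5.78% in the former and 34.0% in the latter. In the cycling cells the order differed: the even rows had 4770 to 7188 CPM, below the 7882 to 9263 CPM of the Ikzf2 cells.

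The same was seen cell by cell at equal depth, with the classes kept from full depth. Thinned to 2000 UMIs, which left out 768 of the 10007 cells, the median cell with 0 had 6 histone UMIs in the even rows and 6 in the Ikzf2 cells, against 3 in the Cst3 cells, 4 in the Cd79a cells and 7 in the remaining cells. The median cycling cell had 5 in the Cd79a cells, 7 in the Cst3 cells, 14 in the Ikzf2 cells, 15 in the remaining cells and 17.5 in the Rag1 cells. In the even rows it had 6, as many as the median cell with 0, and the difference lay in the upper part: the 90th percentile was 23 in cycling cells and 10 in cells with 0. Cells with at least 20 histone UMIs made up 13.3% of the cycling cells of the even rows and 0.279% of those with 0. In the Ikzf2 cells these shares were 38.7% and 1.57%, and in the Cd79a cells they were 7.75% and 0.219%. The variance of the count between cells was 1.73 times its mean in cells with 0 of the even rows and 10.6 times in their cycling cells.

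**Figure D2:**
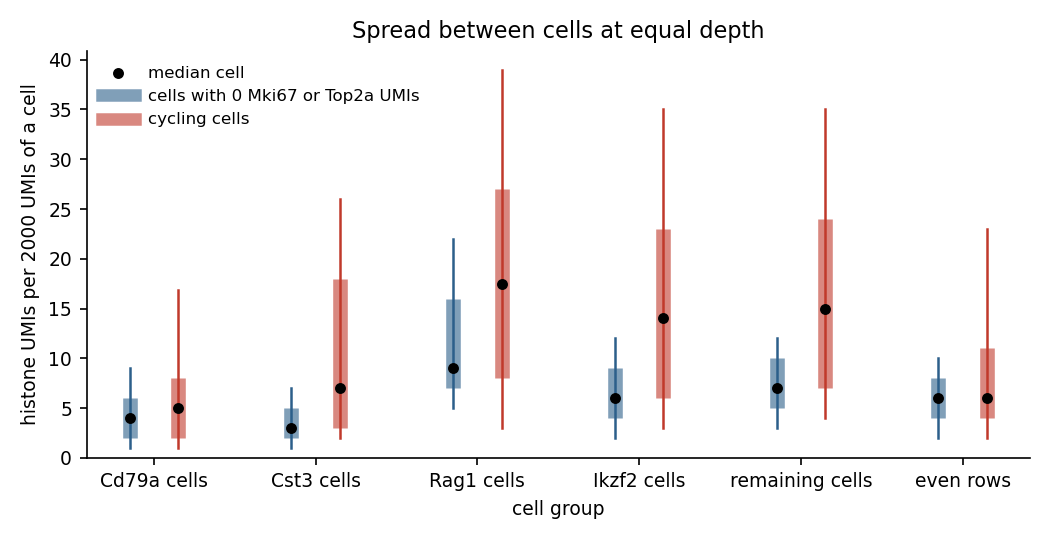
Histone UMIs per cell after each cell was thinned to 2000 UMIs (vertical axis), by cell group (horizontal axis), for cycling cells (red) and cells with 0 UMIs of Mki67 and Top2a (blue); thin lines run from the 10th to the 90th percentile of cells, thick bars from the 25th to the 75th, and points mark the median. In the even rows both medians are at 6 and the 90th percentiles are 23 and 10.

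Of the 59 members with at least 100 UMIs, 31 were at least 2-fold higher in cycling cells and 28 were not, with a median ratio of 2.04 and a range from 1.05 to 7.62. Among all 11689 genes with that many UMIs, 6.02% were at least 2-fold higher, and the median ratio was 0.93. No member had a ratio below 1 in this setting, but Hist1h3c, Hist1h4c, Hist1h3f, Hist1h4h and Hist2h2ab, which all lay under 2-fold, fell to between 0.810 and 0.998 under 1 or more of the alternatives. Of the 59, 33 were above 1 in all 6 groups and 5 were at least 2-fold higher in all 6. With Mki67 and Top2a at 4 UMIs or more, 41 members were at least 2-fold higher and 18 were not. With a hashtag share of at least 95% these counts were 39 and 17. The minimum of 100 UMIs was then applied to the fewer cells kept, so these counts do not cover all 59 members. Across the alternatives, 25 of the 31 and 13 of the 28 kept their side of 2-fold, so that the lower class is the less settled. The shares of all genes for the counts over all 6 groups and under the alternatives are not given, so those counts describe the members alone.

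**Figure D3:**
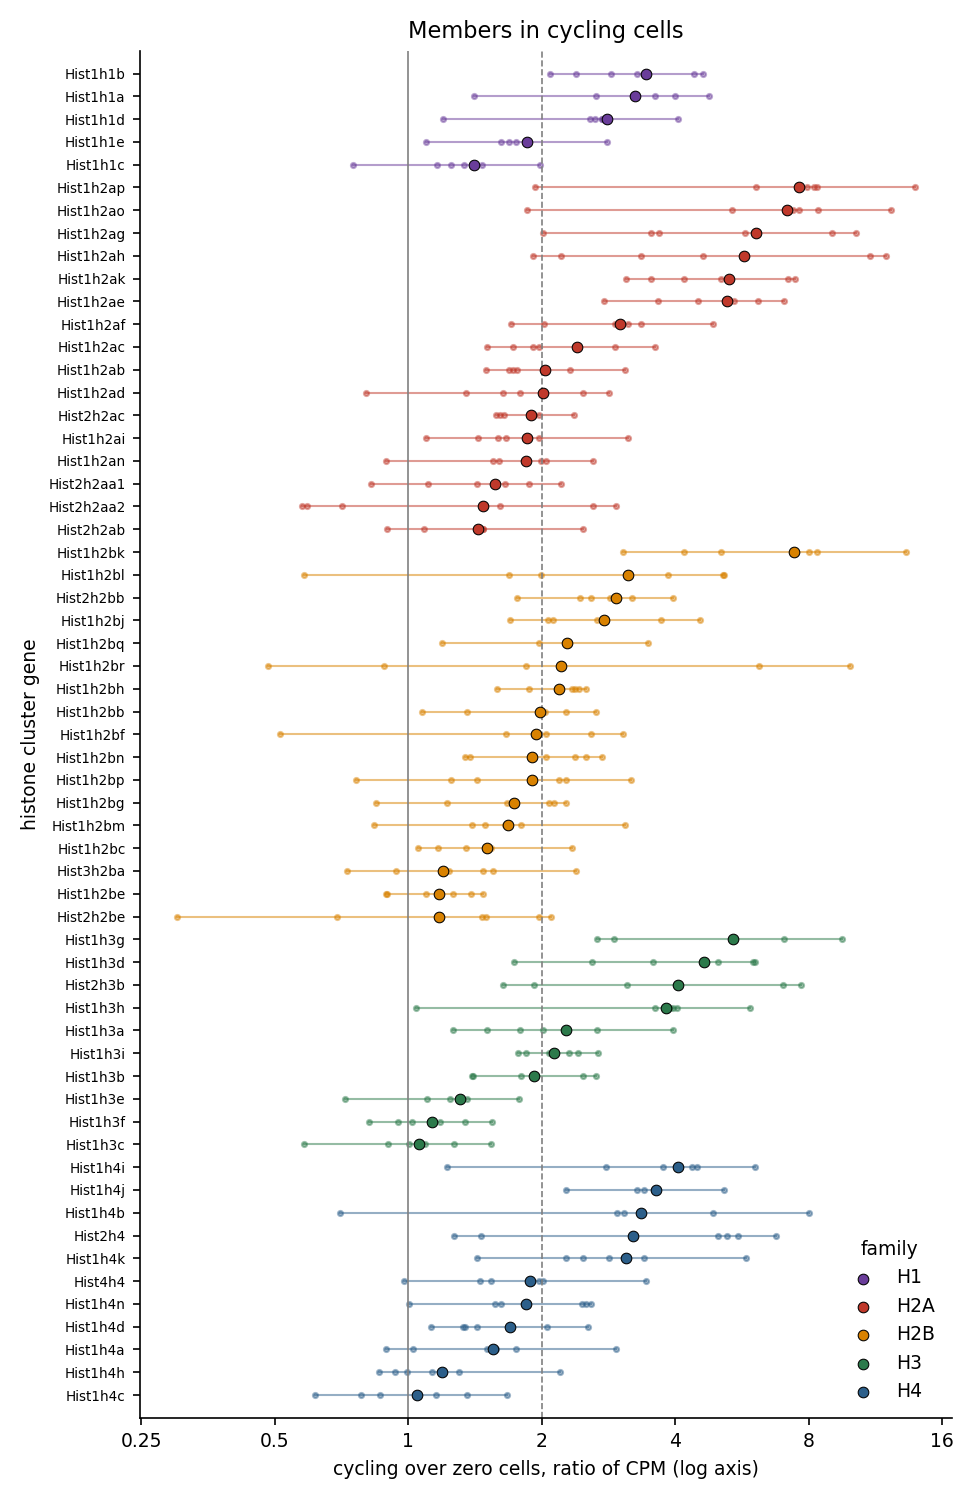
Ratio of the level in cycling cells to that in cells with 0 UMIs of Mki67 and Top2a (horizontal axis, log scale) for the 59 members with at least 100 UMIs (vertical axis), ordered within the 5 families by colour. Large points are the ratio over the 6 groups as strata, small points the ratio in each group where it was above 0, lines their range, and the dashed line marks 2-fold; the ratios run from 1.05 in Hist1h4c to 7.62 in Hist1h2ap.

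The H2A genes, which code for a core histone, differed most between cycling cells and cells with 0 as a family. Their summed level was 3.95 times higher in cycling cells, from 1.96 times in the Rag1 cells to 6.00 times in the Cst3 cells, and 10 of 16 members were at least 2-fold higher. Hist1h2ap had the highest ratio of all members, 7.62, with 4.99 to 9.87 in single rows. Its level in cycling cells was 244 CPM in the Cd79a cells, 372 in the Cst3 cells, 554 in the Rag1 cells, 558 in the Ikzf2 cells, 632 in the remaining cells and 293 in the even rows. In cells with 0 of the same groups it was 29.2, 26.7, 287, 67.8, 104 and 36.9 CPM. The Rag1 cells stood apart in this comparison, since their 60 cells with 0 had nearly the level of the cycling cells of the even rows. Hist1h2ao, whose stem-loop and neighbouring bases are the same, had a ratio of 7.14 (rows 4.34 to 9.71). More than 92% of the 60-base stretches of both genes occur in other transcripts (92.9% and 93.3%), so many of their reads may have been left uncounted.

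By hashtag row, Hist1h2ap had 247, 323, 346 and 368 CPM in rows 11, 13, 15 and 17, and 62.3, 48.6, 65.7 and 65.2 CPM in rows 12, 14, 16 and 18. Hist1h2ao had 405, 514, 557 and 620 CPM in the odd rows, and 91.7, 74.2, 95.04 and 100.4 CPM in the even rows. In both genes every odd row was higher than every even row. Hist1h2ae (ratio 5.23) was at least 2-fold higher in cycling cells of all 6 groups, from 2.77 to 7.06 times, as were Hist1h2ak (3.09 to 7.46 times) and Hist1h2ag (2.01 to 10.2 times). Hist1h2ah had a ratio of 5.72 and Hist1h2af of 3.00. Hist1h2ab differed less, at 2.04, and was between 218 and 307 CPM in the odd rows and between 212 and 236 CPM in the even rows, so the rows overlapped. Hist2h2ac lies in the cluster on chromosome 3, and its ratio of 1.90 had the narrowest range over groups among H2A genes with more than 1000 UMIs, from 1.58 to 2.36.

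Linker histone H1 was 2.40 times higher in cycling cells (1.39 to 2.69 in single rows). Hist1h1b, with 27100 UMIs, had a ratio of 3.43, and Hist1h1a of 3.24 and Hist1h1d of 2.81. Hist1h1b had 1099 CPM in cycling and 460 in other Rag1 cells, 1004 and 306 in the remaining cells, 849 and 192 in the Ikzf2 cells, 633 and 137 in the Cst3 cells, 370 and 129 in the Cd79a cells, and 491 and 236 CPM in the even rows, the other cells being those with 0. It was thus at least 2-fold higher in each group, and the even rows had the smallest ratio, 2.08. Hist1h1e, with 30623 UMIs, and Hist1h1c lay under 2-fold, at 1.86 and 1.41. Hist1h1c reached 2-fold in none of the 6 groups, and was lower in the cycling than in the other Rag1 cells (234 against 311 CPM).

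The mixture of H1 genes differed accordingly. Hist1h1b made up 26.4 to 34.8% of the H1 UMIs in the cycling cells of the 6 groups and 18.004 to 24.7% in the cells with 0, so that these ranges did not overlap. Hist1h1c made up 7.02 to 10.7% in cycling cells and 12.9 to 16.5% in cells with 0, again without overlap. Hist1h1e made up 26.2 to 39.8% and 35.2 to 45.3%, and these ranges overlapped. Among cycling cells, those of the even rows had the lowest share of Hist1h1b (26.4%, 95% Clopper-Pearson interval 24.8 to 28.0) and the highest of Hist1h1e (39.8%, 38.0 to 41.5). The share of Hist1h1a was 6.88% in the cycling cells of the even rows (6.01 to 7.84) and 13.7% in those of the remaining cells (13.1 to 14.3). Hist1h1t, a linker histone gene known from the testis, had 22 UMIs in all kept cells.

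The H2B genes were 2.08 times higher in cycling cells as a sum, and 7 of 17 members were at least 2-fold higher. Hist1h2bk was far above the others of its family, at 7.43 times, and was at least 2-fold higher in all 6 groups. It had 34.2, 50.5, 57.8 and 65.4 CPM in rows 11, 13, 15 and 17, and 11.2, 8.07, 7.45 and 9.69 CPM in rows 12, 14, 16 and 18, with every odd row above every even row. Hist1h2bl followed with a ratio of 3.14 from 225 UMIs, then Hist2h2bb with 2.94 and Hist1h2bj, which had 5605 UMIs, with 2.76. At the low end, Hist2h2be (1.17, from 221 UMIs), Hist1h2be (1.17), Hist3h2ba (1.197) and Hist1h2bc (1.51) had the lowest ratios. Hist3h2ba, chosen after its values were seen, differed between groups: in cells with 0 it had 33.6 CPM in the remaining cells, 24.0 in the Rag1 cells, 18.6 in the Ikzf2 cells and 4.68 to 4.98 CPM in the other groups, and its cycling cells had 24.4, 22.5 and 23.0 CPM in the first of these groups in the same order. The remaining cells had 7.19 times the level of the even rows among cells with 0 (95% interval 4.85 to 10.6, 46 and 71 UMIs).

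The H3 genes had the smallest ratio as a family, 1.67, and were divided within themselves. Hist1h3g (5.40), Hist1h3d (4.64), Hist2h3b (4.06) and Hist1h3h (3.81) were at least 2-fold higher in cycling cells. Hist1h3c (1.06), Hist1h3f (1.13) and Hist1h3e (1.31) reached 2-fold in none of the 6 groups. These last genes lie in the same cluster on chromosome 13 and carry the same form of the stem-loop. Hist1h3c had 42.8, 45.3, 47.2 and 52.4 CPM in the odd rows, and 75.7, 82.0, 73.1 and 75.7 CPM in the even rows, so that here every even row was higher. The same order of rows was seen for Hist1h3f (66.2 to 75.9 CPM in odd and 81.0 to 98.8 CPM in even rows). Hist1h3e overlapped between odd rows (167 to 196 CPM) and even rows (174 to 209 CPM).

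The H4 genes were 1.85 times higher as a sum. Hist1h4i (4.05), Hist1h4j (3.62, from 248 UMIs), Hist1h4b (3.35, from 189 UMIs), Hist2h4 (3.21) and Hist1h4k (3.10) were at least 2-fold higher. Hist1h4c had the lowest ratio of all 59 members, 1.05, and was above 1 in 4 of 8 rows and 3 of 6 groups. In cycling cells it had 24.5 CPM in the Cd79a, 25.9 in the Cst3, 30.0 in the Rag1, 31.9 in the Ikzf2, 25.6 in the remaining cells and 38.9 in the even rows, against 18.04, 15.5, 38.3, 27.7, 41.7 and 45.0 CPM in cells with 0. The even rows were the highest in both classes. By row it had 20.9, 26.7, 24.9 and 29.8 CPM in rows 11, 13, 15 and 17 and 38.2, 51.3, 34.2 and 39.2 CPM in rows 12, 14, 16 and 18, with every even row above every odd row. Hist1h4h was similar to it in its ratio of 1.19, and Hist1h4d, which had 8078 UMIs, lay at 1.70.

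**Figure D4:**
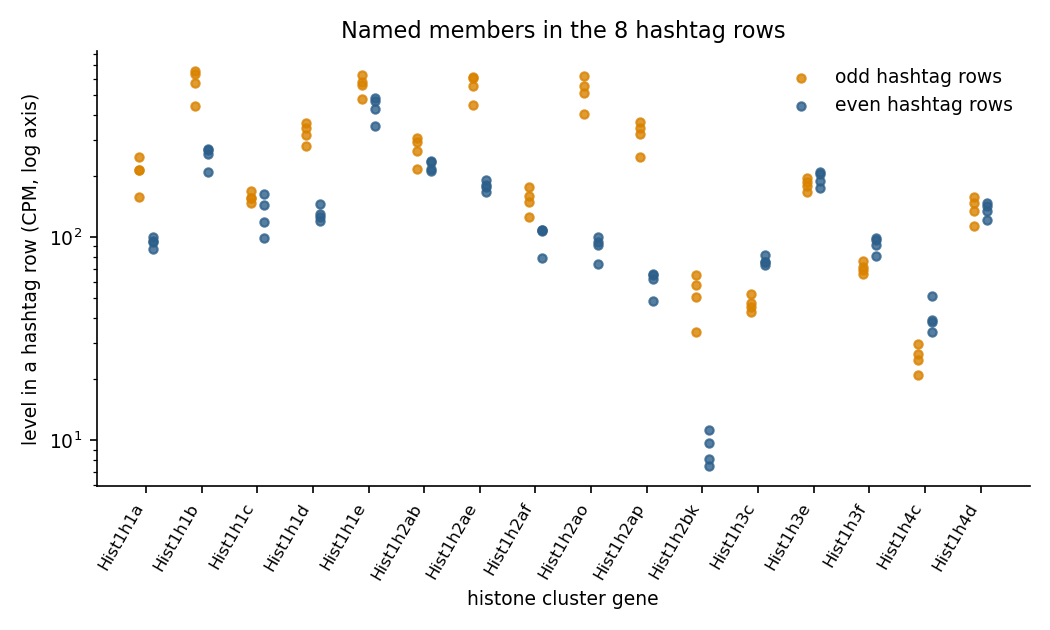
Level (vertical axis, CPM, log scale) of the 16 members given row by row (horizontal axis) in the 4 odd (orange) and 4 even (blue) hashtag rows; each point is 1 row. The odd rows lie above the even rows for Hist1h2ap, Hist1h2ao, Hist1h2bk, Hist1h2ae, Hist1h2af, Hist1h1a, Hist1h1b and Hist1h1d. They lie below them for Hist1h3c, Hist1h3f and Hist1h4c, and the rows overlap for the other members.

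Cells were also classed by 2 lists of genes. The S list held the S phase genes Mcm3, Mcm5, Mcm6, Ung, E2f1 and Ccne2. The mitosis list held Ube2c, Ccnb2, Birc5, Cdc20 and Cenpa. The 662 cells with at least 3 UMIs of the S list and 0 of the mitosis list had 2127 CPM of histones (95% interval 2086 to 2169). This was below the 2899 CPM (2866 to 2933) of the 2616 cells with 0 of both, a ratio of 0.734. The 1171 cells with at least 3 UMIs of both lists had the highest level, 9016 CPM (8973 to 9060), and the 120 cells with the mitosis list alone had 4297 CPM (4151 to 4448). The class with both lists was the deepest, with a median of 15450 UMIs per cell against 5874 in the S class, 4677 in the mitosis class and 3277 in cells with neither. The part of depth in this order was not tested. Cells with at least 2 UMIs of Mki67 and Top2a were 21.5% of the S class and 93.7% of the class with both lists. They were 44.2% of the mitosis class and 4.24% of the cells with neither. Most cells of the S class were thus not cycling cells by the limit used above. The classes also differed in their groups: cells of the even rows were 291 of the S class, 56 of the class with both lists, 38 of the mitosis class and 1913 of the cells with neither. With the groups as strata, over those with at least 20 cells on both sides, the ratio to cells with neither was 0.746 for the S class, 3.18 for both lists and 1.52 for the mitosis list. The last rested on 2 groups that differed, with 3524 against 1652 CPM in the Cst3 cells and 3157 against 3228 CPM in the even rows.

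The lower level of the S class was seen within 4 of the 5 groups with enough cells beyond the intervals. It was 2455 CPM against 3646 CPM with neither list in the Ikzf2 cells, 2290 against 3228 CPM in the even rows, 3223 against 4164 CPM in the remaining cells and 1348 against 1652 CPM in the Cst3 cells. In the Cd79a cells the intervals overlapped (1474 to 1702 CPM and 1636 to 1766 CPM). Of the 59 members, 5 were at most 0.5 times as high in the S class as with neither list, and 1 was at least 2-fold higher, beside 5.27% and 8.6% of all genes. With the groups as strata these counts were 3 and 1. The member above 2-fold was Hist1h2bk, with 12.6 against 5.44 CPM (ratio 2.31, 95% interval 1.57 to 3.40). Hist1h2ap (70.5 against 38.6 CPM, ratio 1.83) and Hist1h2ao (96.2 against 66.3 CPM, ratio 1.45) were also higher, while Hist1h1e (281 against 405 CPM), Hist1h2ab (110.5 against 200.2 CPM) and Hist1h3f (46.9 against 88.3 CPM) were lower. Hist1h3c (41.4 against 66.3 CPM) and Hist1h4c (24.3 against 37.6 CPM) were lower too. These values are over all cells, and the even rows, which made up more of the cells with neither list, had more Hist1h3c, Hist1h3f and Hist1h4c and less Hist1h2ap, Hist1h2ao and Hist1h2bk. With the groups as strata the ratios were 2.08 for Hist1h2bk, 1.55 for Hist1h2ap, 1.14 for Hist1h2ao, 0.771 for Hist1h3c, 0.73 for Hist1h4c and 0.574 for Hist1h3f.

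In the class with both lists, 39 of the 59 members were at least 2-fold higher than with neither list, beside 15.6% of all genes. Hist1h2bk was 16.6 times higher (95% interval 12.6 to 22.2), Hist1h2ap 15.1 times and Hist1h2ao 14.2 times. Hist1h4c (28.6 against 37.6 CPM) and Hist1h3c (54.2 against 66.3 CPM) were lower, with ratios of 0.762 (0.665 to 0.873) and 0.818 (0.740 to 0.904), and Hist1h3f did not differ beyond its interval (0.961, 0.883 to 1.05). With the groups as strata 40 members were at least 2-fold higher, and the ratios were 11.7 for Hist1h2bk, 12.4 for Hist1h2ap and 10.7 for Hist1h2ao. Those of Hist1h3c and Hist1h3f then lay above 1, at 1.09 each, and that of Hist1h4c was 0.867, so that the direction for Hist1h3c and Hist1h3f turned. The even rows had 11511 CPM in this class (11217 to 11810, 56 cells), above the 9316 CPM of the Rag1 cells (9231 to 9401), the group with the highest level over all cells. Cells of the even rows that met a marker limit were not left out of these 56, and their part in this level was not tested.

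**Figure D5:**
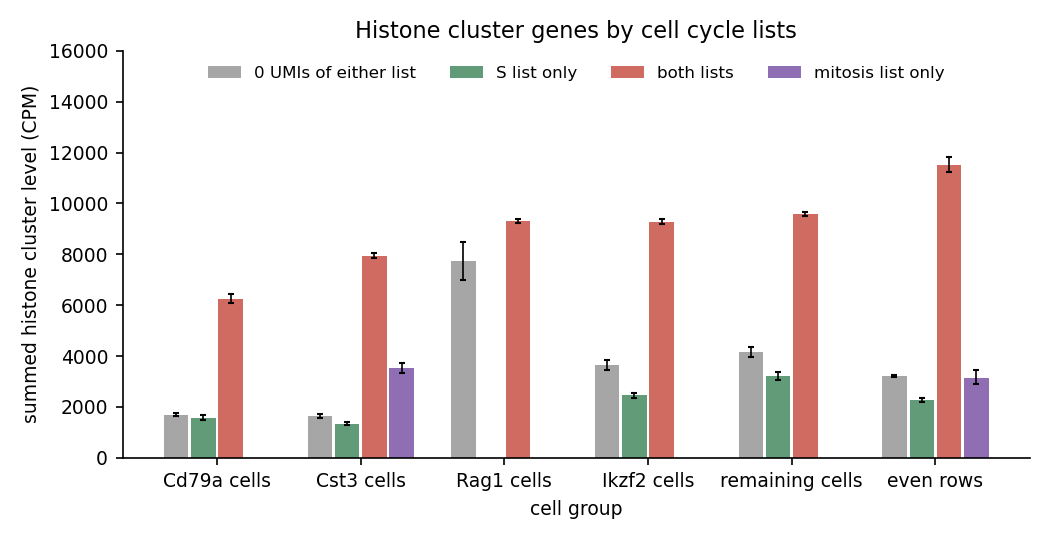
Summed level of the histone cluster genes (vertical axis, CPM) in each cell group (horizontal axis) for cells with 0 UMIs of the S and mitosis lists (grey), at least 3 of the S list alone (green), of both (red) or of the mitosis list alone (purple); error bars are 95% Poisson intervals, and classes with fewer than 20 cells are not drawn. The red bar is the highest in each group, from 6259 CPM in the Cd79a cells to 11511 CPM in the even rows, and the green bar lies below the grey one in all 5 groups that have it.

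Among cells with 0 UMIs of Mki67 and Top2a, the groups were compared with the even rows. In the Cst3 cells 32 of 59 members were at most 0.5 times as high, beside 19.7% of all genes, and the median ratio of the members was 0.489 against 0.873 for all genes. At least 2-fold higher was 1 member, Hist2h2be, which had 15 UMIs there, beside 14.9% of all genes. Hist1h4d (52.1 against 134 CPM, ratio 0.388) and Hist1h2ab (90.9 against 217 CPM, ratio 0.418) were among the lower ones. Hist1h2bc was 1.64 times higher (44.3 against 27.0 CPM, 95% interval 1.36 to 1.96). In the Cd79a cells 17 of 59 were at most 0.5 times as high, beside 19.3% of all genes, and the median ratio was 0.551 against 0.755. There 0 members were at least 2-fold higher, beside 11.3% of all genes. In the Ikzf2 cells 4 members were at most 0.5 times as high and 2 at least 2-fold higher, beside 9.96% and 17.5% of all genes. In the 60 Rag1 cells with 0, which had a median of 2494 UMIs, 25 were at least 2-fold higher and 6 at most 0.5 times as high. This stands beside 20.8% and 22.6% of all genes. In the remaining cells, 5 were at least 2-fold higher and 1 at most 0.5 times as high, beside 19.6% and 7.72% of all genes. Among the higher ones were Hist1h2ao (185 against 58.7 CPM), Hist1h2ap (104 against 36.9 CPM) and Hist1h2bg (86.3 against 38.4 CPM), while Hist1h1e, at 462 and 424 CPM, differed by a ratio of 1.09.

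Genes that act with the histone cluster genes differed unequally. Of the 10 factors of histone mRNA transcription and processing with enough UMIs, 1 was at least 2-fold higher in cycling cells, namely Slbp, which binds the stem-loop, with a ratio of 2.39. Npat, which activates histone genes, had 1.59, Eri1, an exonuclease of the stem-loop, 1.76, and Casp8ap2 1.41. The eleventh gene of this list, Zfp473, had 78 UMIs. Of 7 histone chaperones, which carry histones to DNA, 5 were at least 2-fold higher, with Asf1b at 9.85, Chaf1a at 3.81, Chaf1b at 3.36 and Nasp, a carrier of H1, H3 and H4, at 2.61, while Asf1a had 1.45 and Hira, which places H3.3 outside replication, 1.54. Of 10 histone genes outside the clusters, 5 were at least 2-fold higher. H2afx had a ratio of 6.33, Cenpa, the H3 of centromeres, 5.65, H1fx 3.05, H2afz 2.94 and H2afv 2.51, and H3f3b and H3f3a, which code for H3.3, had 1.01 and 1.09. All 14 S phase genes and all 10 genes of G2 and mitosis were at least 2-fold higher, with medians of 3.37 and 14.4. These counts stand beside the 6.02% of all genes. Mki67 and Top2a, which set the classes, belong to no list.

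In the GENCODE M21 annotation of GRCm38, all 67 members had a gene of the same identifier. The 54 Hist1 members lie on chromosome 13 between 21715763 and 23934851, the 10 Hist2 members on chromosome 3 between 96219865 and 96270132, both Hist3 members on chromosome 11, and Hist4h4 on chromosome 6. Among the 59 members, 52 had the stem-loop and 7 had no match in the window searched. Of the 52, 27 were at least 2-fold higher in cycling cells (median ratio 2.02), and of the 7, 4 were (median 2.21), so that the motif did not separate the classes. The annotated transcript runs on for more than 50 bases past the stem-loop in 22 members, of which 7 were at least 2-fold higher, with a median ratio of 1.79. In the 30 members whose annotated transcripts end sooner, 20 were, and the median was 2.85. These 30 include members whose annotated transcript ends before the stem-loop, such as Hist1h1b, Hist1h2ak and Hist1h2af, so the annotation does not hold their full ends. The limit of 50 bases was chosen after the ratios had been computed, and no test was made. Transcripts with AATAAA, the signal for a poly(A) tail, in their last 40 bases were annotated for 12 of the 59, of which 5 were at least 2-fold higher (median 1.89, against 2.14 in the other 47). In members annotated to end before the stem-loop, a later AATAAA could not be found by this search. The annotated transcript of Hist1h3f ends 365 bases past its stem-loop, that of Hist1h4c 454 bases and that of Hist1h3c 74 bases, while that of Hist1h2ap ends 3 bases and that of Hist1h2bk 30 bases past it. Hist1h1d, with 4884 bases, and Hist1h2ae, with 151 bases past the stem-loop, were at least 2-fold higher, so the lengths overlapped between the classes. Hist1h1e shares its strand and part of its span with Hist1h2be. Reads that match both genes are not counted, so the levels of this pair are uncertain.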

How the data were processed

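Per the labels and the study's methods, the authors pooled cells of 8 sorted populations, prepared a 5′ library of transcripts and a library of hashtag antibodies, and counted reads with Cell Ranger 6.0.0, as the file header states, against a ready-made mm10 reference of unnamed release. The deposited values are raw UMI counts per gene or hashtag and barcode, with no normalization and before the cell filters of the study. No per-sample columns were left unused.

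The cell filters (at least 1000 genes, at most 5% mitochondrial counts) follow the methods. Cells were taken from hashtag rows 11 to 18, and rows were given no stage or genotype. Barcodes that carry hashtags of 2 rows were left out by the limit of 80%. Doublets within a row remain, since no doublet caller was run. Total gene UMIs per row ranged from 2283162 to 14601545. Counts were summed over cells and divided by all gene UMIs. Ratios over groups are Mantel-Haenszel rate ratios over groups with at least 20 cells on both sides. Intervals are exact Poisson, exact conditional or Clopper-Pearson intervals at 95% and cover counting error only. A member was called by size (at least 2-fold, from 100 UMIs), with no test, since rows that cannot be tied to a population were not taken as replicates. The stratified ratio was also computed on simulated counts. These were Poisson counts with fixed classes and the same ratio of a gene in every group. They did not cover the spread between cells or ratios that differ between groups.

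Members, marker lists and limits were chosen with earlier results of these data known. Full values were reserved for the 12 members with the most UMIs and the 3 highest and 3 lowest cycling ratios, and other members with at least 100 UMIs are named with fewer values, except Hist3h2ba, whose group values are given. Marker lists were those for B cells, myeloid cells, CD4+ CD8+ thymocytes, Helios+ thymocytes, stage 3 iNKT1 cells, NK cells or ILC, red cells and thymic epithelium. Sums over the last lists of 2 genes each were at most 7.58, 0.272 and 116 CPM in a group, the last from Epcam in the Cst3 cells. Annotation came from GENCODE M21 and sequence from RefSeq's GRCm38.p6. Python 3.11.15, numpy 2.4.6, scipy 1.17.1 and pandas 2.3.3 were used. Alternatives were other cell filters, hashtag and cycling limits, thinning, another CPM total and each row left out. Phase classes were also compared with cell groups as strata, which was chosen after seeing the data.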

Additional observations from a re-analysis of the deposited data

Results flagged for a closer look

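In 102 sets of 4 rows, over the summed level and 16 members in the 6 cell groups, 7 held a row that lay beyond the 95% critical value of Dixon's gap-to-range ratio, which chance passes in about 1 in 20 sets. The summed histone level was 5758 CPM in the Ikzf2 cells of row 13 and 6507 to 6534 CPM in the other rows of that group. In the even rows it was 2870 CPM in row 16 and 3340 to 3415 CPM in the others. Hist1h2af had 79.3 CPM in row 16, against 107 to 109 CPM in the other even rows. Hist1h3e had 188 CPM in the Cd79a cells of row 17 (others 106 to 117 CPM). Hist1h4d had 259.6 CPM in the Rag1 cells of row 11 (others 198 to 207 CPM), and Hist1h3c 41.2 CPM in those of row 15 (others 59.9 to 62.7 CPM). Hist1h1e had 829.9 CPM in the remaining cells of row 15, where the other rows had 634 to 649 CPM.

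For 4 of the 59 members, the ratio of cycling cells to cells with 0 was below 1 in every row of the remaining cells and above 1 in every row of another group, counting rows with at least 10 UMIs of the member. The difference was not tested, and the share of all genes with such a pattern is not given. In the remaining cells, Hist1h3c reached at most 0.947, Hist1h4c at most 0.852, Hist3h2ba at most 0.947 and Hist2h2be at most 0.941.

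The 2140 barcodes that passed the cell filters but were assigned to no single row were used in no comparison, and had 4201 CPM of histone cluster genes (95% interval 4173 to 4229), with a median of 7132 UMIs.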

How the results depend on the processing

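No paired analysis was possible because the 2 libraries are the transcript and hashtag readouts of the same cells, no replicate number is tied to a hashtag row, and the results come from no test. The alternatives of cell filter (500 genes and 10% mitochondrial counts), 4000 genes per cell, hashtag share of 95%, and ribosomal protein and Gm genes left out of the total moved the ratio of the highest to the lowest row from 2.26 to 2.08, 1.70, 2.39 and 2.16. They moved that of the highest to the lowest group from 3.96 to 3.70, 4.64, 3.35 and 4.17. The histone level in cycling over other cells, 2.63, became 2.33, 2.26 and 2.95 under the first 3, and 3.15 with Mki67 and Top2a at 4 UMIs, 3.01 with Birc5 and Cdk1 as markers, 2.16 after thinning and 2.85 with all cells pooled. The ratio of the S class to cells with neither list, 0.734, became 0.645, 0.762 and 0.692 under the first 3, and 0.793 with a limit of 2 UMIs, and was 0.746 with cell groups as strata, an alternative chosen after seeing the data. The number of members under 2-fold, 28, was 17 with a hashtag share of 95%, and 18 each with 4 UMIs and with Birc5 and Cdk1. The number at least 2-fold higher, 31, stayed between 26 and 41. Leaving out 1 row at a time gave 3.58 to 4.18 for the groups, 2.56 to 2.73 for cycling cells, 0.700 to 0.760 for the S class, 29 to 33 members at least 2-fold higher and 26 to 30 under it. The cause of these shifts was not tested.

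Members under 1 were Hist1h4h (0.998), Hist1h3f (0.997), Hist1h4c (0.969) and Hist1h3c (0.963) with 500 genes, Hist1h3c (0.913) and Hist2h2ab (0.956) after thinning, and Hist1h4c (0.810) and Hist1h3c (0.859) with all cells pooled. Members with few UMIs, such as Hist1h2br with 125, have wide counting error. Poly(A) priming limits every level to captured transcripts, and all cells come from 1 library.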
